A study of Mus musculus with 25 samples.

Results

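Pck1 and 6 further genes that supply or handle glycerol 3-phosphate in fat were measured in perigonadal white adipose tissue of mice lacking the glucose-responsive transcription factor ChREBP, which is encoded by Mlxipl. The 7 genes (Pck1, Pck2, Pcx, Gpd1, Gpd1l, Gpd2 and Aqp7) were chosen by name, with earlier results of these data known. On the array, 13 of the 56605 distinct gene probes carry one of these names. Of the 13 probes, 12 passed the filter on dim spots, so all 7 genes were among the 25908 genes tested. The remaining probe was another Gpd1l probe with raw median intensities of 30 to 53.5 over all arrays.

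The tissue came from male C57BL6/J mice that had been fasted for 24 h and refed for 18 h with 20% glucose in the drinking water, 1 mouse per array. The labels gave 4 groups. ChREBPβ KO (6 arrays) and its wild type, ChREBPβ WT (7 arrays), belong to a line in which the exon specific to the ChREBPβ isoform was deleted from the germline with CRISPR/Cas9. Total ChREBP KO (5 arrays) and its wild type, total ChREBP WT (7 arrays), belong to an Mlxipl-null line that lacks both the α and the β isoform. Both deletions are present in the whole body, so fat is not the only tissue without the factor. The age of the mice is not given in the sources used here. Each of the 4 wash batches named in the labels held 1 or 2 arrays of each of the 4 groups.

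Triglyceride synthesis in the adipocyte needs glycerol 3-phosphate as the backbone to which fatty acids are attached. White fat makes it from dihydroxyacetone phosphate through the cytosolic glycerol 3-phosphate dehydrogenase. The dihydroxyacetone phosphate comes from glucose, or from pyruvate and other non-glucose carbon by a route called glyceroneogenesis. In glyceroneogenesis pyruvate carboxylase makes oxaloacetate, and phosphoenolpyruvate carboxykinase turns it into phosphoenolpyruvate. Pck1 in fat is known to be high in fasting, when re-esterification of fatty acids depends on glyceroneogenesis, and low after refeeding, when insulin represses it. In these genes the loss of total ChREBP went with opposite changes: Pck1 was higher, and Pcx, Gpd1 and Gpd2 were lower, whereas none of the 7 passed the test in the ChREBPβ line.

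Upstream sequences of the genes are shown first, because ChREBP with its partner MLX binds E boxes (CACGTG), usually as 2 often imperfect copies with 5 bases between (the carbohydrate response element), and because Pck1 is a classical target of cAMP signalling. RefSeq start-site windows of build GRCm38.p6 were in the table for 6 of the 7 genes (9 windows), with Gpd1 missing. They were searched on both strands for CACGTG, for that pair of boxes, for TGACGTCA or TTACGTCA (cAMP response element), and for direct repeat 1, 2 copies of AGGTCA with 1 base between. The 250 bases before the start are printed 5′ to 3′ on the strand of the gene for Pck1 and for the 2 genes whose windows hold an E box, with each match in capitals.
Pck1 (chr2:173152823-173153072, plus strand): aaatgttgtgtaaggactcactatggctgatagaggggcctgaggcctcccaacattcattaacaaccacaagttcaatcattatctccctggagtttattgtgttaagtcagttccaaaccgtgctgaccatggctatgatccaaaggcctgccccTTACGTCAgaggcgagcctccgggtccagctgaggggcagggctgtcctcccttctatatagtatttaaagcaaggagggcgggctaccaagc
Pcx (chr19:4510222-4510471, plus strand): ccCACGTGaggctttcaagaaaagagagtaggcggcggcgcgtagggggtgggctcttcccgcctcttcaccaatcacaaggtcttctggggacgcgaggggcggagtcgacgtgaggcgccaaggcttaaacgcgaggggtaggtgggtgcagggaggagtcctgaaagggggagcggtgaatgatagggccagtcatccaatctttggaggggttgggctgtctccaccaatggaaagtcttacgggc
Gpd1l (chr9:114933988-114934237, minus strand): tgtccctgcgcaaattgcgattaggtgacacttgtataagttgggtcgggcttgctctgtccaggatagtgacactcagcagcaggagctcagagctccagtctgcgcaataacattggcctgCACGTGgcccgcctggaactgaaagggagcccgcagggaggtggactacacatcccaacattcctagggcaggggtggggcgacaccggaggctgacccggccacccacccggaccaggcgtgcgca

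The capitals in Pck1 mark TTACGTCA, 93 to 86 bases before the start. Windows with TGACGTCA or TTACGTCA made up 2.28% of the 32851 promoter windows in the table, each 300 bases long with 50 bases after the start. The E box lies 248 to 243 bases before the first Pcx start and 127 to 122 bases before the Gpd1l start. An E box was found in 7.15% of all windows. The second Pcx window, both Gpd2 windows, both Aqp7 windows and the Pck2 window held none of the 4 motifs. The exact pair of CACGTG boxes at that spacing was in 0 of the 32851 windows, so its absence from the 9 says nothing about them. Direct repeat 1 was found in 0.0396% of all windows and in none of the 9. A match of letters describes this window and was not tested for binding.

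Levels are log2 median spot intensities after quantile normalisation, so 1 unit is 1 doubling of intensity. They compare arrays for 1 probe and not 1 probe with another. Raw median intensity was 84 to 127 per array over a local background of 15 to 22, no spot was saturated, and arrays of a group correlated at 0.971 to 0.997. Each gene is represented by its brightest kept probe, and "called" means an adjusted p-value (limma, Benjamini-Hochberg over 39619 probes) under 0.05. The labels number the arrays of a group as replicates. A p-value sets a difference against the spread between mice within groups, estimated in 1 fit over all 4 groups.

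The Mlxipl probe, which checks the labels, fell in total ChREBP KO from 15.96 ± 0.20 (SD, n = 7) to 14.21 ± 0.08 (SD, n = 5), a log2 difference of -1.75 (adjusted p = 3.17e-08, limma). In the ChREBPβ line its level was 15.08 ± 0.27 (SD, n = 7) in wild types and 14.36 ± 0.33 (SD, n = 6) in knockouts, a difference of -0.73 with an adjusted p of 0.14 (limma). The unadjusted p was 3.3e-05 (limma), and the difference within the wash batches ran from -0.92 to -0.29. Where the probe lies relative to each deletion is not stated here, so a remaining signal says nothing about protein. Adipocyte markers were bright in all groups, and their score, the mean log2 deviation of 8 genes from their means over all arrays, ran from -0.37 to 0.22. Transcripts of other tissues differed between arrays. The liver marker score (12 genes) was 0.73 to 4.17 in ChREBPβ WT, -0.73 to 3.63 in ChREBPβ KO, -3.93 to 1.40 in total ChREBP WT and -4.23 to -3.16 in total ChREBP KO. Albumin (Alb) had a mean level of 16.73 in ChREBPβ WT and 10.61 in total ChREBP KO, and Fgb, a fibrinogen chain, 15.04 and 5.41. Of the 12 listed genes, Cyp2e1 is also expressed in fat and was highest in total ChREBP KO, at 18.08. The kidney marker score (8 of 12 listed genes kept) was 3.44, 3.13 and 1.76 in ChREBPβ WT replicates 3, 1 and 7 and at most 0.75 in the other arrays. The score of epididymis and vas deferens markers (3 of 12 kept) was 2.81 and 1.15 in total ChREBP WT replicates 2 and 3 and at most 0.54 elsewhere. Liver and kidney both express Pck1, so results are also given without these 5 arrays or with the liver and kidney scores as covariates where a call changes. In whole tissue, fewer cells of a type and less RNA per cell cannot be told apart.

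**Figure D1:**
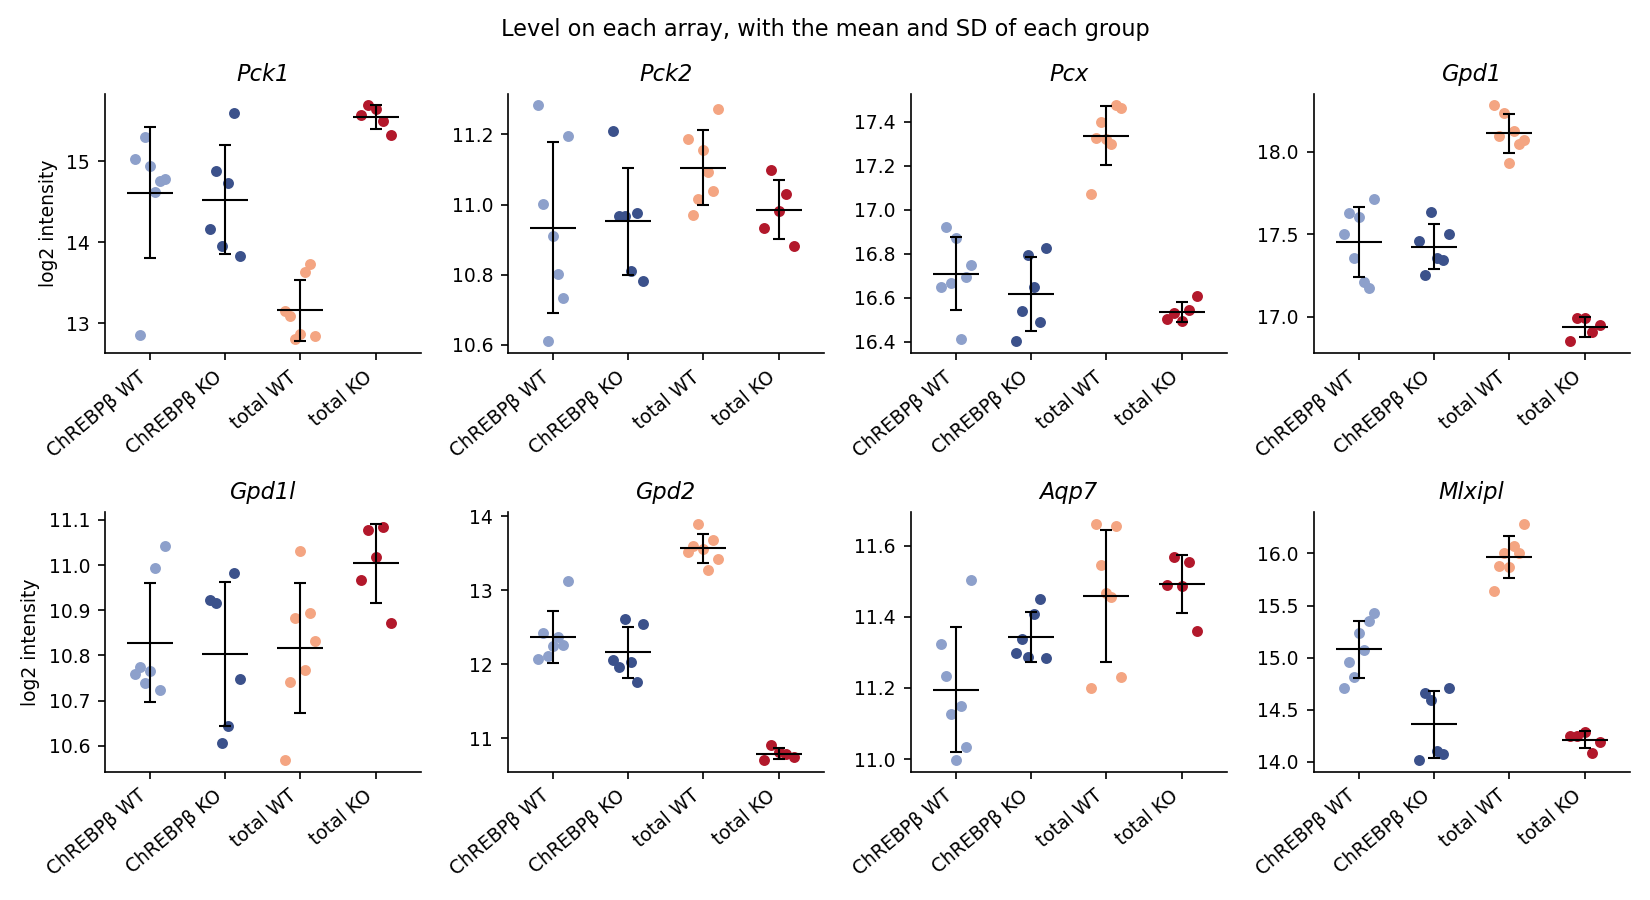
Log2 intensity (y axis) of the 7 genes and of Mlxipl on each array, by group (x axis); each point is 1 array and the black bars give the mean and SD. All total ChREBP KO arrays lie above all total ChREBP WT arrays for Pck1 and below them for Pcx, Gpd1 and Gpd2. Each y axis has its own range.

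The first comparison asked which of the genes depend on ChREBP as a whole in refed fat. Of the 7 genes, 4 were called between total ChREBP KO and total ChREBP WT, 1 higher and 3 lower, beside 9.36% of all 25908 genes tested. The 2 groups did not overlap for these 4 genes, beside 7.58% of all genes. As the 7 genes were chosen with earlier results known, these shares describe them and are no test of an excess. By probe, 6 of the 12 were called, 1 higher and 5 lower. The median difference of the 7 genes was -0.12 and that of all genes 0.02.

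Pck1 encodes the cytosolic phosphoenolpyruvate carboxykinase, the enzyme at which glyceroneogenesis is mainly controlled. Its probe (A_66_P121110, mm9 chr2:172984307-172984366) read 15.57, 15.69, 15.65, 15.50 and 15.32 in the 5 total ChREBP KO arrays (replicates 1, 2, 3, 4 and 7). The 7 total ChREBP WT arrays ranged from 12.80 over a median of 13.09 to 13.73. Every KO array was above every WT array, by more than a full log2 unit at the closest. The difference was 2.44 (SE 0.32, 95% confidence interval 1.76 to 3.11, adjusted p = 2.08e-05, limma), a 5.42-fold higher intensity with an interval of 3.39 to 8.65. It was the fifth largest rise among all tested genes. Within wash batches 1 to 4 the difference was 2.76, 2.55, 1.64 and 2.57. The 5 KO arrays had liver marker scores of -4.23 to -3.16, with the lowest group median, and kidney marker scores of -0.66 to 0.17. With the liver and kidney scores as covariates the difference was 2.38 (adjusted p = 0.000478, limma).

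Pck2, the mitochondrial isozyme, moved little. Its brighter probe (A_52_P21659, mm9 chr14:56167465-56167524) ranged from 10.88 to 11.10 in total ChREBP KO and from 10.97 to 11.27 in total ChREBP WT. The groups overlapped, the difference was -0.12 (95% confidence interval -0.33 to 0.09, adjusted p = 0.595, limma), and the dimmer Pck2 probe gave 0.00 (-0.15 to 0.14). The interval of the brighter probe leaves room for a fall of up to 0.33 and excludes a rise as large as that of Pck1.

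Pcx encodes pyruvate carboxylase, the mitochondrial enzyme that makes oxaloacetate from pyruvate for both glyceroneogenesis and citrate export. Its single probe (A_55_P2008599, mm9 chr19:4621610-4621669) read 16.50, 16.53, 16.50, 16.55 and 16.61 in total ChREBP KO, and 17.07 to 17.47 with a median of 17.33 in total ChREBP WT. All KO arrays lay below all WT arrays. The difference was -0.81 (SE 0.09, adjusted p = 1.56e-06, limma), or 57.2% of the wild-type intensity, and ran from -0.83 to -0.77 within the 4 wash batches.

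Gpd1 encodes the cytosolic glycerol 3-phosphate dehydrogenase, which reduces dihydroxyacetone phosphate to glycerol 3-phosphate. Its brightest probe (A_52_P16419, mm9 chr15:99555334-99555393) read 16.85, 16.99, 16.99, 16.91 and 16.95 in total ChREBP KO. In total ChREBP WT it ran from 17.93 over a median of 18.09 to 18.28, so the groups were nearly 1 unit apart at their closest. The difference was -1.18 (SE 0.09, adjusted p = 1.17e-08, limma), or 44.1% of wild type. The other probe (A_66_P137409, mm9 chr15:99550555-99550614) gave -1.64 (SE 0.18, adjusted p = 1.1e-06, limma), and both probes followed each other across the 25 arrays with r = 0.958.

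Gpd1l, a cytosolic relative of Gpd1 with the same reaction, did not follow it. Its brightest probe (A_52_P634039, mm9 chr9:114809202-114809261) read 10.97, 11.08, 11.02, 11.09 and 10.87 in total ChREBP KO and 10.57 to 11.03 in total ChREBP WT. The groups overlapped and the difference was 0.18 (95% confidence interval 0.01 to 0.35), with an adjusted p of 0.215 (limma). The second probe gave 0.21 (-0.04 to 0.47). Both confidence intervals exclude a fall of the size seen for Gpd1.

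Gpd2 encodes the mitochondrial glycerol 3-phosphate dehydrogenase, which works in the other direction: it oxidises glycerol 3-phosphate at the inner membrane and, with Gpd1, forms the glycerol phosphate shuttle. It had the largest difference of the 7 genes. Its brightest probe (A_52_P373938, mm9 chr2:57222621-57222680) read 10.71, 10.91, 10.82, 10.79 and 10.75 in total ChREBP KO. In total ChREBP WT it read 13.27 to 13.90, with a median of 13.56, so every KO array was more than 2 units below every WT array. The difference was -2.78 (SE 0.16, adjusted p = 1.56e-10, limma), a 6.87-fold lower intensity. The other probe (A_55_P2606369, mm9 chr2:57220145-57220204) gave -2.50 (SE 0.13, adjusted p = 2.71e-11, limma). Within the wash batches the brighter probe gave -2.88 to -2.73.

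Aqp7 encodes the aquaglyceroporin through which glycerol leaves the adipocyte. Its brightest probe (A_52_P403405, mm9 chr4:40981243-40981302) read 11.49, 11.57, 11.49, 11.56 and 11.36 in total ChREBP KO, within the wild-type range of 11.20 to 11.66. The difference was 0.03 (95% confidence interval -0.16 to 0.22, adjusted p = 0.911, limma), and the other probe gave -0.12 (-0.33 to 0.09).

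**Figure D2:**
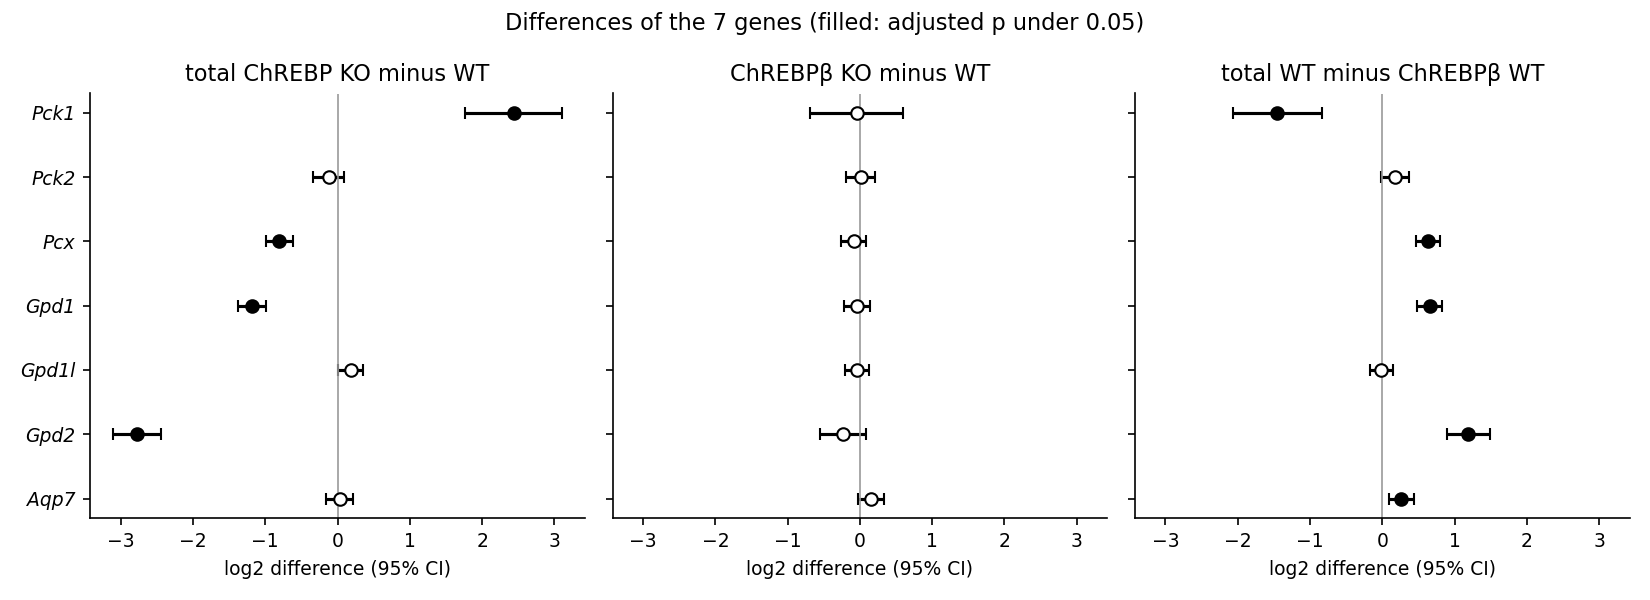
Log2 difference (x axis) with its 95% confidence interval for the brightest probe of each gene (y axis) in 3 comparisons; filled points had an adjusted p under 0.05. Pck1 lies at 2.44 and Gpd2 at -2.78 in the total ChREBP line, while all 7 intervals of the ChREBPβ line include 0.

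The second comparison asked which genes depend on the ChREBPβ isoform alone. None of the 7 genes was called (limma, adjusted p), and 0.00772% of all genes were called, which is 2 genes. At an unadjusted p under 0.05 there were 0 of the 7, beside 9.71% of all genes. Pck1 ranged from 13.84 over a median of 14.45 to 15.59 in ChREBPβ KO and from 12.86 over a median of 14.78 to 15.30 in ChREBPβ WT. The groups overlapped, and the SDs, 0.67 and 0.80, were larger than in both total ChREBP groups (0.38 in WT and 0.14 in KO). The Pck1 difference was -0.04 (SE 0.31, 95% confidence interval -0.68 to 0.60, adjusted p = 0.986, limma). Within wash batches 1 to 4 it was -1.06, 2.02, -0.16 and 0.01, so it had no common direction. Each of these values rests on only 1 or 2 arrays of a group. ChREBPβ WT replicate 2, in batch 2, was the lowest array at 12.86, and without it the difference was -0.37 (adjusted p = 0.758, limma). The 3 ChREBPβ WT arrays with high kidney markers read 15.03, 15.30 and 14.75, and with all 5 arrays of high kidney or epididymis markers left out the difference was 0.18 (adjusted p = 0.925, limma).

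For the other genes the ChREBPβ intervals were narrower. Gpd2 was 11.76 to 12.61 in ChREBPβ KO and 12.07 to 13.12 in ChREBPβ WT, with 4 of 6 KO arrays below the lowest WT array. Its difference was -0.23 (95% confidence interval -0.55 to 0.08, adjusted p = 0.687, limma). With an array left out, the Gpd2 difference ran from -0.32 to -0.10. The other Gpd2 probe gave -0.07 (-0.32 to 0.18), with 1 KO array below the lowest WT array. The Pcx difference was -0.09 (-0.26 to 0.09) and the Gpd1 difference -0.04 (-0.22 to 0.14). Those intervals exclude falls of the size measured in the total ChREBP line. The differences were 0.01 (-0.19 to 0.22) for Pck2, -0.04 (-0.20 to 0.13) for Gpd1l and 0.15 (-0.03 to 0.33) for Aqp7.

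**Figure D3:**
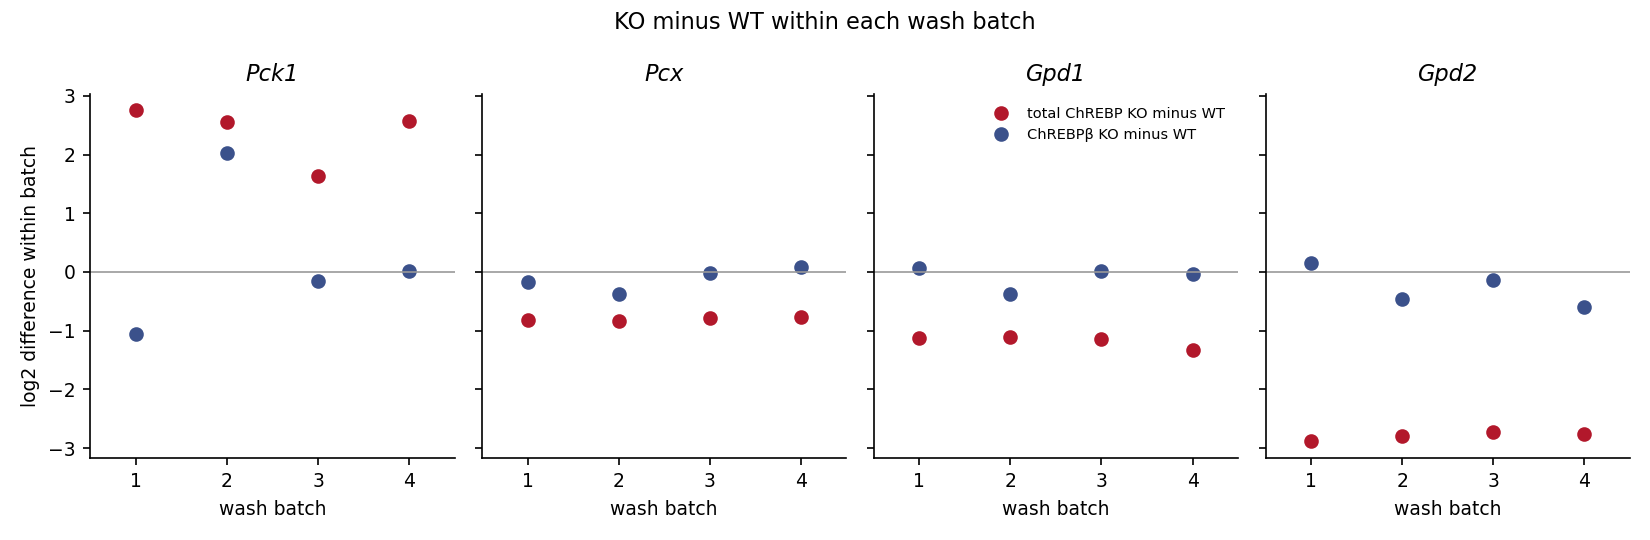
Difference KO minus WT (y axis, log2) within each of the 4 wash batches (x axis) for the 4 called genes; red points are the total ChREBP line and blue points the ChREBPβ line. Pck1 is positive in all 4 batches in the total ChREBP line, from 1.64 to 2.76, and runs from -1.06 to 2.02 in the ChREBPβ line. Each batch holds 1 or 2 arrays of a group.

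Whether the 2 lines differ in these effects was tested as the difference of the differences, total minus ChREBPβ. It was called for 4 of the 7 genes, Pck1, Pcx, Gpd1 and Gpd2, beside 3.49% of all genes. It was 2.48 for Pck1 (95% confidence interval 1.55 to 3.41, adjusted p = 0.00152, limma). For Pck1 it was positive in each wash batch but varied widely, from 0.53 in batch 2 to 3.82 in batch 1. It was -2.55 for Gpd2 (adjusted p = 2.54e-07, limma), -1.14 for Gpd1 (adjusted p = 6.32e-06, limma) and -0.72 for Pcx (adjusted p = 0.000842, limma). Pck2, Gpd1l and Aqp7 gave -0.13, 0.22 and -0.12, each with an interval that includes 0. Each knockout was set against its own wild type, so the gap between the wild types enters these values. That gap, total ChREBP WT minus ChREBPβ WT, was -1.45 for Pck1 and 1.19 for Gpd2.

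The wild types of the lines also differed. Between total ChREBP WT and ChREBPβ WT, 5 of the 7 genes were called, beside 22.2% of all genes. Pck1 was 1.45 log2 units lower in total ChREBP WT (difference -1.45, SE 0.29, adjusted p = 0.00133, limma). The other called genes were higher there: Gpd2 by 1.19 (adjusted p = 1.56e-05, limma), Gpd1 by 0.66 (2.1e-05), Pcx by 0.63 (2.44e-05) and Aqp7 by 0.26 (0.0254). For Gpd2, Gpd1 and Pcx all 7 arrays of total ChREBP WT lay above all 7 of ChREBPβ WT. For Pck1 the groups overlapped through ChREBPβ WT replicate 2, and the difference was -2.29, 0.23, -1.21 and -1.71 in wash batches 1 to 4. Mlxipl itself was 0.89 higher in total ChREBP WT (adjusted p = 0.000105, limma). These groups differ in line as well as in the liver and kidney scores given above, and line and marker level cannot be told apart fully in this design. With the liver and kidney scores as covariates the Pck1 difference was -1.56 with an adjusted p of 0.0695 (limma). Without the 5 arrays of high kidney or epididymis markers it was -1.27 (adjusted p = 0.0844, limma), and 3 of the 7 genes were called. With the epididymis score added to the other 2 as a covariate, none of the 7 was called (limma). Over all probes, the number called went from 8741 to 2836 without the 5 arrays and to 1 with all 3 scores. The lack of calls with all 3 scores is therefore not particular to these genes. The Aqp7 call held in 9 of 15 alternative fits, and its other probe, at 0.09, was not called.

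Over the 4 groups, Pck1 ordered as total ChREBP KO (mean 15.55), ChREBPβ WT (14.61), ChREBPβ KO (14.53) and total ChREBP WT (13.16). The ChREBPβ groups, next to each other in that order, did not differ beyond their spread. The highest ChREBPβ KO array, at 15.59, lay inside the range of total ChREBP KO. Gpd2 had the outer groups the other way round, from 13.57 in total ChREBP WT through 12.37 and 12.16 in ChREBPβ WT and ChREBPβ KO to 10.80 in total ChREBP KO. Gpd1 had the same order as Gpd2, with 18.11, 17.45, 17.42 and 16.94. For Pcx the lowest 2 groups, ChREBPβ KO at 16.62 and total ChREBP KO at 16.54, had overlapping ranges. The Pcx range of total ChREBP KO, 16.495 to 16.607, also lay inside that of ChREBPβ WT, 16.411 to 16.921. Total ChREBP KO was thus below its own wild type for Pcx and not apart from the wild type of the other line.

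**Figure D4:**
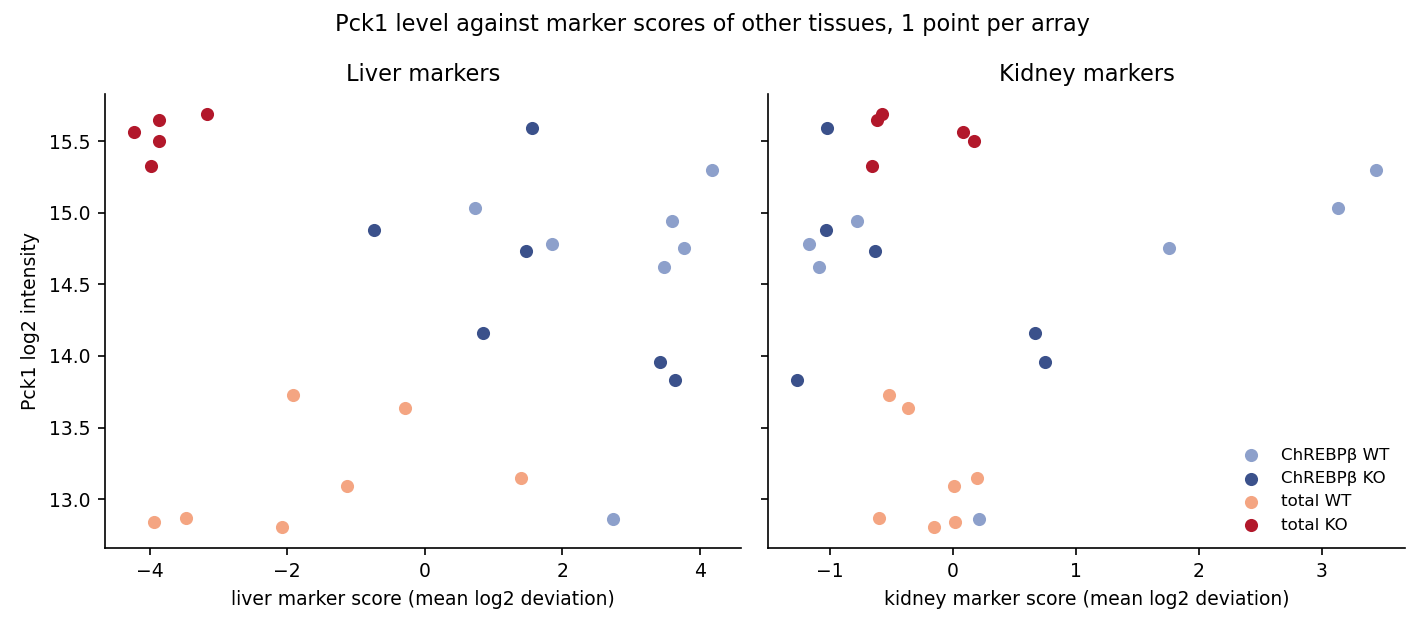
Pck1 log2 intensity (y axis) against the liver marker score (left) and the kidney marker score (right), in mean log2 deviation, with 1 point per array coloured by group. The 5 total ChREBP KO arrays combine the highest group mean of Pck1 (15.55) with liver scores of -4.23 to -3.16.

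Across the 25 arrays the Pck1 level correlated with the liver score at r = -0.038 and with the kidney score at r = 0.075. After group and wash batch were taken out, these were -0.077 and 0.061. With the other scores it correlated at 0.515 (adipocyte markers), -0.494 (epididymis and vas deferens markers), -0.331 (brown fat markers) and -0.137 (macrophage markers), and on the residuals at 0.331, -0.023, -0.418 and -0.098. The adipocyte score was 0.05 to 0.11 in total ChREBP KO and -0.37 to 0.07 in total ChREBP WT, and its part in the Pck1 difference was not tested. Pck1 ran against Gpd1 (r = -0.861), Gpd2 (-0.858) and Pcx (-0.822), while Gpd1 and Gpd2 ran together (0.950). These values describe arrays that share groups and wash batches. On what is left after group and batch, Pck1 gave -0.324 with Gpd1, -0.426 with Gpd2 and -0.437 with Pcx, and Gpd1 gave 0.512 with Gpd2. Gpd1l and Aqp7, which were not called in the total ChREBP line, gave 0.560 with each other, and their residuals also followed the adipocyte marker score (r = 0.876 and 0.428). The Gpd1l residuals ran against the epididymis (-0.696), liver (-0.641), brown fat (-0.586) and kidney (-0.434) scores. Those of Aqp7 ran against the brown fat (-0.403) and liver (-0.286) scores, so the adipocyte score was not the only one followed.

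The genes whose level over the 25 arrays was most like that of Pck1 were Oxct1 (r = 0.865), Bnip3 (0.853), Trafd1 (0.847), Wdr81 (0.847) and Tnk2 (0.845). Oxct1 encodes the mitochondrial enzyme that activates ketone bodies for oxidation, and Bnip3 a mitochondrial outer membrane protein known for its part in mitophagy. Oxct1 was 0.99 and Bnip3 1.08 higher in total ChREBP KO than in its wild type, differences that the choice by likeness to Pck1 largely fixes. On the residuals after group and wash batch, the most similar were Gsdma2 (r = 0.823), Adamts10 (0.821), Pmepa1 (0.816), Pcgf5 (0.815) and Phox2a (0.812), none of which was called in either line. Gsdma2, Phox2a and Adamts10 were dim, with mean levels of 4.98, 5.75 and 6.22 in ChREBPβ WT. Pmepa1 and Pcgf5 read 15.31 and 10.72 there. The residuals include ChREBPβ WT replicate 2, whose Pck1 level of 12.86 stood apart from its group. How far that array sets these values was not tested.

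Other genes of the pathway were taken from lists, each gene by its brightest kept probe. The lists were also chosen with earlier results of these data known, so their counts are no test of an excess. Of 16 further genes for glycerol and glycerol 3-phosphate, 3 rose and 1 fell in total ChREBP KO, and the median difference of the list was -0.20. The counts of this list and the next 5 stand beside 9.36% of all genes called, 1488 higher and 938 lower of 25908, and beside a median difference of all genes of 0.02. Gpat3, an acyltransferase that attaches the first fatty acid to glycerol 3-phosphate, rose by 0.95 (SE 0.17, adjusted p = 0.000632, limma), from 14.95 ± 0.21 (SD, n = 7) to 15.90 ± 0.32 (SD, n = 5). Its relative Gpat4 rose by 0.37 and Tpi1, the triose phosphate isomerase that makes dihydroxyacetone phosphate, by 0.39 (adjusted p = 0.00885 and 0.00199, limma). Aqp11 fell by 0.53 (adjusted p = 0.0276, limma). Glycerol kinase (Gk), which would recycle free glycerol, differed by 0.03 (adjusted p = 0.973, limma).

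Of 16 genes for oxaloacetate, malate, pyruvate and citrate traffic around Pcx and Pck1, 1 rose and 5 fell, with a list median of -0.21. Acly, which splits exported citrate into acetyl-CoA and oxaloacetate, fell by 1.67 (adjusted p = 2.28e-09, limma). The mitochondrial citrate carrier Slc25a1 fell by 1.32 and the cytosolic malic enzyme Me1 by 1.05 (adjusted p = 5.08e-06 and 2.27e-06, limma). Mpc1, a subunit of the mitochondrial pyruvate carrier, fell by 0.82 (adjusted p = 4.01e-06, limma). Between the wild types these genes were also called (limma). In total ChREBP WT, Slc25a1 was higher by 1.18, Me1 by 1.00, Mpc1 by 0.78 and Acly by 0.53. Mean levels in total ChREBP KO and ChREBPβ WT were 14.347 and 14.453 for Slc25a1 and 16.694 and 16.736 for Me1. They were 15.781 and 15.825 for Mpc1, and further apart for Acly, at 16.615 and 17.743. The malate dehydrogenases Mdh1 and Mdh2 differed by 0.06 and 0.17 and were not called.

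Of 10 further gluconeogenesis genes, 1 rose and 3 fell. Eno1, an enolase that interconverts phosphoglycerate and phosphoenolpyruvate, fell by 1.39 (adjusted p = 8.18e-11, limma), although near-identical copies of this gene could share the probe. Slc37a4, the glucose 6-phosphate transporter, fell by 0.93 (adjusted p = 0.000789, limma) and Ldha, a lactate dehydrogenase, by 0.56 (adjusted p = 1.07e-07, limma), while G6pc3 rose by 0.28 (adjusted p = 0.0311, limma). Eno1 and Ldha were also called between the wild types (limma), 0.68 and 0.25 higher in total ChREBP WT. The liver gluconeogenic genes Fbp1 and G6pc gave -1.36 and -1.43 and were not called, and they were measured in arrays whose liver marker scores also differed. For G6pc the groups did not overlap, beside 7.58% of all genes. Neither gene was called with the liver and kidney scores as covariates (limma). The size of their differences in that fit is not given here.

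Of 18 known regulators of Pck1 transcription, 3 rose and 2 fell in total ChREBP KO, with a list median of 0.01. Foxo1, a factor that insulin keeps out of the nucleus, rose by 0.60 (adjusted p = 0.000221, limma) and Cebpa, an adipocyte differentiation factor, by 0.31 (adjusted p = 0.0202, limma). Srebf1, a lipogenic factor, fell by 0.71 and Ppargc1b, a coactivator, by 0.63 (adjusted p = 4.28e-05 and 0.0057, limma). Both were also called between the wild types (limma), 0.53 and 0.57 higher in total ChREBP WT. Pparg, the main activator of Pck1 in fat, differed by 0.14 and was not called. Of 18 PPARγ target genes of fat cells, 7 rose and 3 fell, with a list median of 0.18. Pdk4, a kinase that inhibits pyruvate dehydrogenase, rose by 0.70 and Acsl1, an acyl-CoA synthetase, by 0.61. Hsd11b1, which reactivates glucocorticoids, fell by 1.11 and Slc27a1, a fatty acid transporter, by 1.00 (adjusted p of these 4 from 0.000525 to 0.00163, limma). Of 12 genes that insulin lowers through FOXO factors, 3 rose and none fell, with a list median of 0.06. They were Pdk4, Sesn3 (0.67) and the zinc finger factor Klf15 (0.57).

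**Figure D5:**
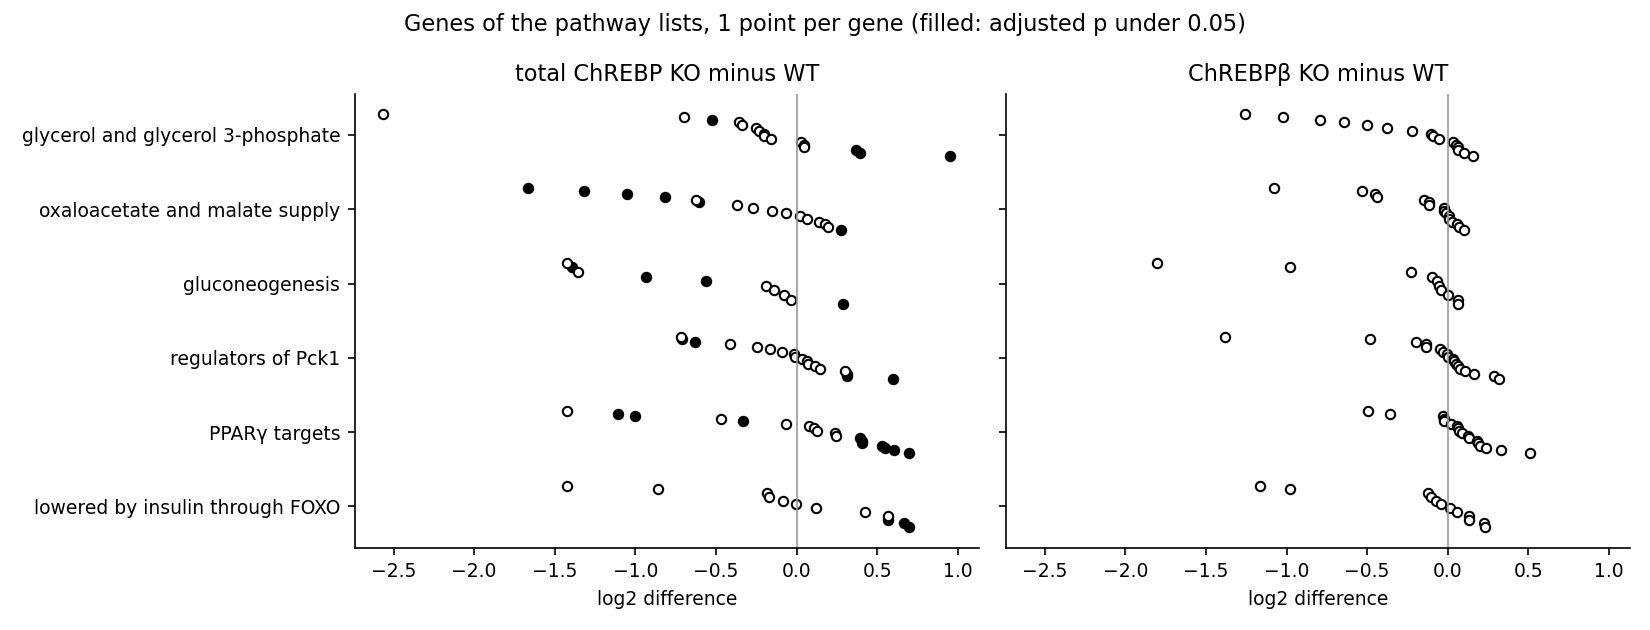
Log2 difference (x axis) of each gene of 6 pathway lists (y axis) in the total ChREBP line (left) and the ChREBPβ line (right); filled points had an adjusted p under 0.05. Filled points fall on both sides of 0 in the left panel for 5 of the 6 lists, and the right panel has none.

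No gene of these 6 lists was called in the ChREBPβ line (limma), where Gpat3 differed by 0.06, Acly by -0.12 and Foxo1 by 0.05. An unadjusted p under 0.05 (limma) was seen there for 1 of 16, 2 of 16, 0 of 10, 3 of 18, 4 of 18 and 1 of 12 genes, beside 9.71% of all genes. List genes named above with such a p had the sign of the total ChREBP line. They were Hsd11b1 (-0.49), Ppargc1b (-0.48), Slc25a1 (-0.45), Slc27a1 (-0.36), Srebf1 (-0.20) and Sesn3 (0.23). Without the 5 arrays of high kidney or epididymis markers, the calls lost in the total ChREBP line included those of Aqp11, G6pc3, Rxra, Cebpa and Plin4. With the liver and kidney scores as covariates, the calls lost included these and those of Gpat4 and Me2, and Akr1b3 was called.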

How the data were processed

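Cy3-labelled cRNA of 25 pgWAT samples was hybridised by the authors to Agilent mouse arrays, 1 array per mouse. The deposited files hold the scanner's spot intensity (median pixel intensity, Agilent Feature Extraction 10.10.1.1, not background-corrected), and the authors' deposited series table holds log2 values of 40561 probes, normalised by them. The table followed the log2 median intensity of each array (lowest r = 0.9998) and gave the alternative values, with all 13 probes of the 7 genes in it. Member levels here differed from it by at most 0.084.

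The log2 median intensities were used as follows. Spots with an outlier flag were set missing. Spots were kept where found, significant and well above background on at least 81.25% of the arrays (21) or 75% of a group (6, 5, 6 and 4 arrays). Quantile normalisation and the median over repeated probes followed. Group and wash batch entered a linear model of all 25 arrays, fitted with limma 3.58.1 under R 4.3.3. It was tested on simulated data. Coordinates of probes come from the array files (mm9), for which no gene annotation was used here, so exons and UTRs are not stated.

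The 7 genes and the lists were chosen with earlier results of these data known. Named genes were the 7, Mlxipl, up to 4 called genes of largest size per list, and the 5 most similar to Pck1 by each measure. Other names were chosen after their values were seen, and 1 gene of a list is not reported here by name. The number of arrays limits precision. Alternatives varied background correction, filter, batch terms, weights, probes, marker scores and arrays.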

Additional observations from a re-analysis of the deposited data

Results flagged for a closer look

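Among 28 combinations of gene and group tested for an array far from the rest of its group, of which chance flags about 5%, a single array stood apart in 2. Pck1 read 12.86 in ChREBPβ WT replicate 2, where the next array read 14.62. Gpd2 read 13.12 in ChREBPβ WT replicate 8, where the next array read 12.42.

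The knockout effect differed between the lines for 4 genes by the test of that difference (limma), total minus ChREBPβ. It was 2.48 for Pck1, -0.72 for Pcx, -1.14 for Gpd1 and -2.55 for Gpd2. The wild types of the lines, which enter this contrast, also differed for these 4 genes in the main fit (limma).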

How the results depend on the processing

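In the total ChREBP line the 4 called genes were called under all 14 alternatives that give a value for all 7 genes and without any single array, with Pck1 at 2.37 to 2.50 and, with an array left out, 2.31 to 2.61. The difference between the lines was called for the same 4 genes under all 13 such alternatives and without any single array, with Pck1 at 2.32 to 2.54 and, with an array left out, 2.33 to 2.77. A fit on spots detected on all arrays has no value for the Gpd1l probe. In the ChREBPβ line none of the 7 was called under any alternative run. Pck1 there turned to 0.18 without the 5 arrays of high kidney or epididymis markers, a setting chosen after seeing the data, and ran from -0.37 to 0.12 with an array left out.

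Between the wild types, 3 of the 7 genes were called without those 5 arrays and 0 with liver, kidney and epididymis scores as covariates (also chosen after seeing the data), against 5. Over all probes, 2836 and 1 were called in those fits, against 8741. Pck1 kept its direction but was not called with liver and kidney scores as covariates (-1.56), without the 5 arrays (-1.27) or with all 3 scores (-1.51, adjusted p = 0.577, limma). With an array left out, 4 to 6 genes were called and Pck1 ran from -1.76 to -1.31. The Aqp7 call was lost without total ChREBP WT replicate 3, 4 or 7 or ChREBPβ WT replicate 4 or 7, and Pck2 was called without ChREBPβ WT replicate 1 (0.24, adjusted p = 0.0416, limma).

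Values near 0 changed sign, none of them called unless stated. Aqp7 in the total ChREBP line was -0.020 with array weights, -0.044 as the mean of its probes, -0.033 and -0.028 with 2 or 3 scores, and -0.0094 to 0.079 with an array left out. Pck2 in the ChREBPβ line was -0.00023 on spots detected on all arrays, -0.050 and -0.12 with 2 or 3 scores, -0.011 without the 5 arrays, and -0.052 to 0.076 with an array left out. Gpd1 and Gpd1l there ran from -0.090 to 0.010 and from -0.070 to 0.0099 with an array left out. Between the wild types Pck2 was -0.094 and -0.33 with 2 or 3 scores. Gpd1l there was 0.029 with array weights, 0.083 as the mean of its probes, 0.051 without the 5 arrays, -0.046 to 0.043 with an array left out, and -0.32 (called) with 2 scores. The causes were not tested.

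Same-numbered arrays of different groups correlated at -0.434 to 0.539 in their deviations (29 pairs, 9 over 0.1), so the numbers were not taken to pair mice. With a replicate block Pck1 was 2.43 in the total ChREBP line, and of the called genes Aqp7 between the wild types (0.28, adjusted p = 0.0626, limma) lost its call. Over all probes, the number called in the total ChREBP line was 3546 and ran from 2448 to 5282. In the ChREBPβ line it was 2, and 47 with array weights, 19 with 3 scores, 0 to 78 with an array left out and otherwise 0 or 2. For the difference between the lines it was 1284, with 685 under the replicate block and 2081 with array weights. Between the wild types it was 8741, with 5268 on spots detected on all arrays, 3034 with 2 scores, 2836 without the 5 arrays and 1 with 3 scores.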
